A study of Mus musculus with 4 samples.

Results

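Cyclin-dependent kinase (CDK) inhibitors in the spleen of leukemia-bearing transplant recipients are described here by 5 genes of the 32285 in the files. Cdkn1a encodes p21 and Cdkn1b encodes p27, Cdkn2a encodes both p16Ink4a and p19Arf, and Cdkn2c and Cdkn2d encode p18Ink4c and p19Ink4d. The 5 genes were selected on their measured levels in these same libraries, which were known to differ between cycling and resting T cells (Tc) and between erythroid stages. Those differences are therefore given as descriptions, with no test. The genotype of the donor cells was not used to choose them, and the genotype comparison was tested.

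Single-cell RNA was measured in 4 libraries from spleens taken on day 23 after bone marrow transplantation (BMT). The BALB/c recipients, lethally irradiated, had received WEHI-3B cells (a BALB/c myelomonocytic leukemia line, 10000 cells), C57BL/6 bone marrow and, on day 2, 200000 donor Tc, and the study used mice 7 to 12 weeks old. Donor cells of 2 libraries were Havcr2fl/fl;E8icre/+, where the E8i enhancer of Cd8a drives Cre recombinase in CD8+ cells to delete the floxed Havcr2 (TIM-3), and those of the other 2 were Havcr2fl/fl, with the floxed alleles and no Cre. Irradiation, leukemia and floxed alleles were thus common to both genotypes, and the study's description gives the donor genotype for the marrow as well as for the Tc.

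The 4 libraries held 1511 to 6737 barcodes and 17693991 to 55045903 gene UMIs, and 11500 cells remained after filters and doublet calls. The cells came from a pan-T isolation kit and, by the study's account, from a sort for donor Tc, steps meant to leave T cells. Nevertheless 4689 cells lay outside the T cell clusters, 2171 of these in named erythroid classes. Pairs of libraries shared 1 to 10 barcodes. Havcr2 in noncycling CD8+ Tc stood at 65.0 and 9.51 CPM (UMIs of a gene per 1000000 gene UMIs) in the Havcr2fl/fl;E8icre/+ libraries and at 55.2 and 120.4 CPM in the Havcr2fl/fl libraries, so the library labelled Havcr2fl/fl;E8icre/+ replicate 1 was not below both controls. Whether reads at the 3′ end lie outside the floxed part, and whether the label and the deletion of this library are right, was not tested. The genotype is named throughout as the labels give it.

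CDK inhibitors bind the kinases that carry a cell from G1 through S phase into mitosis. The Cip/Kip proteins p21 and p27 bind cyclin-CDK complexes of several kinds, whereas the INK4 proteins p16Ink4a, p18Ink4c and p19Ink4d bind CDK4 and CDK6 and keep D-type cyclins from activating them, which leaves the retinoblastoma protein able to hold E2F in check. p27 is high in resting lymphocytes and is removed largely by protein degradation when they enter the cycle. p21 is a target of p53, p16Ink4a is known from senescent cells, and p27 and p18Ink4c are known from the last divisions of erythroblasts, which stop dividing before they lose their nucleus.

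In GENCODE M21 (GRCm38), Cdkn1a lies on chromosome 17 (29090976-29100727, plus strand), Cdkn1b on chromosome 6 (134920401-134925513, plus), Cdkn2a on chromosome 4 (89274471-89294653, minus), Cdkn2c on chromosome 4 (109660876-109667189, minus) and Cdkn2d on chromosome 9 (21288410-21291407, minus). Cdkn2b, another INK4 gene outside the set, is the neighbour of Cdkn2a at 89306299-89311039. The 2 coding transcripts of Cdkn2a end in shared sequence, so a 3′ UMI cannot tell p16Ink4a from p19Arf. Cdkn1a overlaps an annotated transcript, AC167363.2, on the other strand.

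Sequence before the start is shown for 3 genes with different peaks, namely Cdkn1b and Cdkn2d, highest in separate late erythroid clusters, and Cdkn2a, highest in cycling CD8+ Tc. It runs 5′ to 3′ on the gene's strand, from RefSeq starts on GRCm38.p6, and of the 250 bases before each start the annotated exon bases (198 for Cdkn2d, 34 for Cdkn2a and 0 for Cdkn1b), which lie nearest the start, are left out: Cdkn1b at chr6:134920151-134920400, Cdkn2d at chr9:21291408-21291459 and Cdkn2a, at the start for p19Arf, at chr4:89294654-89294869. Capitals mark matches, on either strand, to the CCAAT box (CCAAT), the GC box (GGGCGG) or an E2F-type element (TTTCCCGC or TTTGGCGC).
Cdkn1b: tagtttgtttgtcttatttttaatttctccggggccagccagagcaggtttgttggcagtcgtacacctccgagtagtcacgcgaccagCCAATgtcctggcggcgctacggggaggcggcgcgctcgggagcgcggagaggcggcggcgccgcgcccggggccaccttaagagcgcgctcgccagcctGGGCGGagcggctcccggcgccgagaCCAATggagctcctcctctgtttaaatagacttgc
Cdkn2d: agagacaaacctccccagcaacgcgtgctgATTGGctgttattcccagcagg
Cdkn2a: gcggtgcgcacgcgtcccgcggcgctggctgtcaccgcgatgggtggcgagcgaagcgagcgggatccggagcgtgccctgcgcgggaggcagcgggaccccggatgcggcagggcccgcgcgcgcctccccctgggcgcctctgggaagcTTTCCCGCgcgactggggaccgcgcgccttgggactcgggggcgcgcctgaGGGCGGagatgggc
Matches were counted over the whole 250 bases, so some lie in the exon bases not printed. Cdkn1b had 2 CCAAT boxes, 161 and 35 bases before the start, and 1 GC box at 61. Cdkn2d had 1 CCAAT box at 220 and GC boxes at 118, 106 and 38. Cdkn2a, at the start for p19Arf, had an E2F-type element at 99 and GC boxes at 48 and 14. The 250 bases before its other start (chr4:89282193-89282442) matched none of these elements. Of 32851 promoter windows of 250 bases, 33.8% held a CCAAT box, 32.7% a GC box and 1.30% an E2F-type element. A match is a string of letters and not a measured site.

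Levels were read as CPM over the summed cells of a class in each library. The values of 4 libraries are listed in 1 order, Havcr2fl/fl;E8icre/+ replicates 1 and 2 and then Havcr2fl/fl replicates 1 and 2. Noncycling CD8+ Tc numbered 3489 and cycling CD8+ Tc 754, the latter being the clusters in which markers of S phase or of G2/M phase were raised. The noncycling class, also called resting here, held unnamed cluster 5 (388 cells), where Mki67 stood at 204 to 302 CPM, against means of 32.3 to 58.4 CPM in the 5 other noncycling clusters measured and 219 CPM in the S phase-like cluster. Without that cluster, a setting chosen after seeing the data, the log2 ratios of cycling over noncycling CD8+ Tc given here moved by less than 1 SD. Clustering at a higher resolution gave a further CD8+ cluster of 235 cells named G2/M phase, with 8 of 12 markers raised. It shared the leading genes Lgals1, Vim, Crip1 and H2afz with unnamed cluster 5. Whether unnamed cluster 5 holds cycling cells was not tested. There were 1598 noncycling and 153 cycling CD4+ Tc, and the 12 cycling CD4+ Tc of Havcr2fl/fl replicate 1 were too few to use. The summed G2/M markers (12 genes, Mki67 and Top2a among them) reached 3492 to 4009 CPM in cycling and 196 to 342 CPM in noncycling CD8+ Tc. B cell markers summed to at most 3.23 CPM in noncycling and 2.95 CPM in cycling CD8+ Tc.

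**Figure D1:**
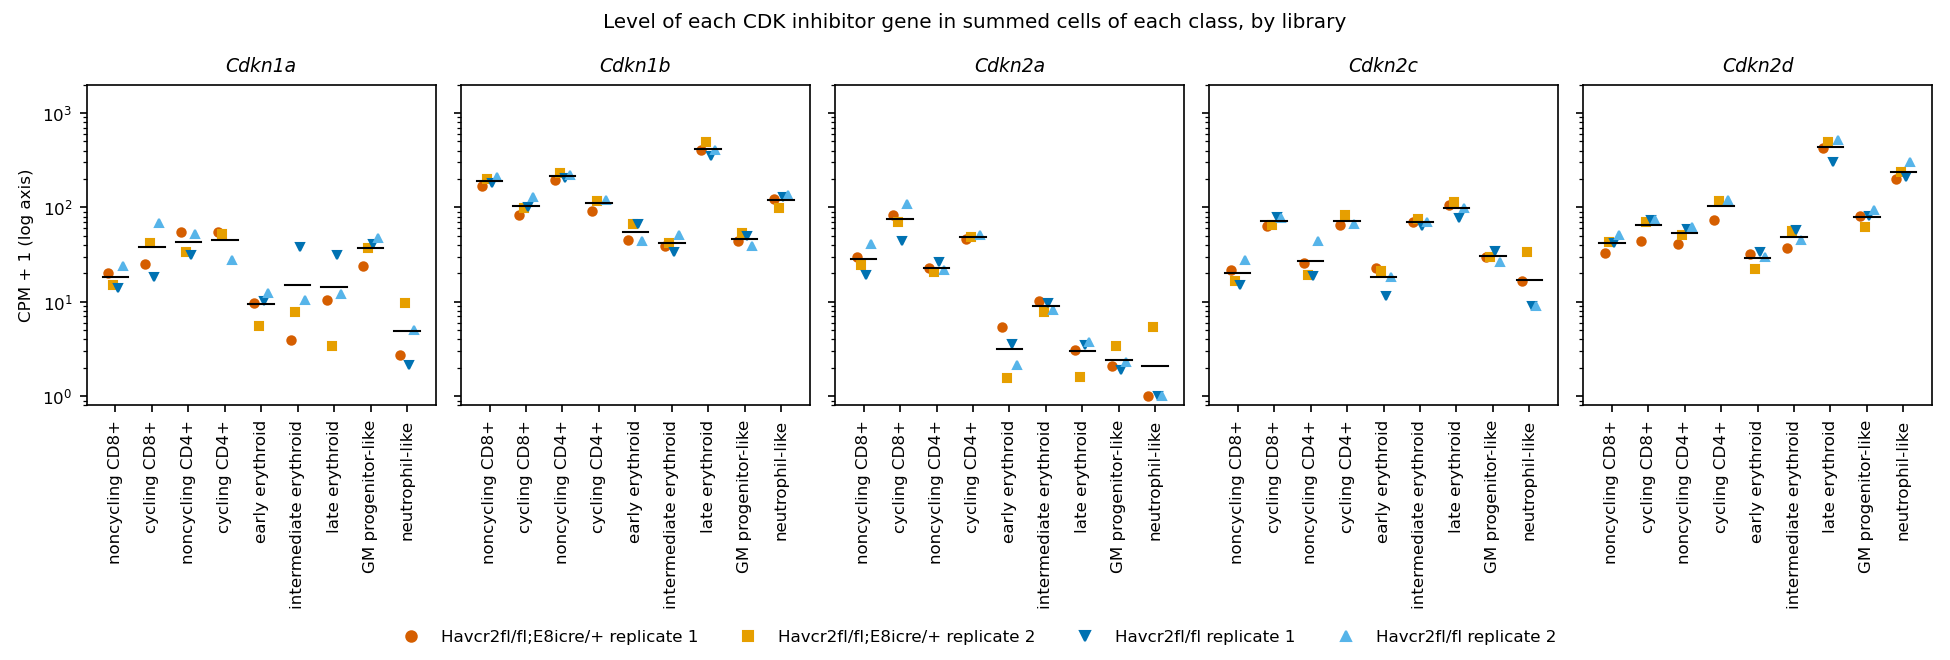
CPM + 1 on a log axis of the 5 genes in 9 cell classes. Each symbol is 1 library and each black line the mean over libraries with at least 20 cells; Cdkn1b and Cdkn2d are highest in late erythroid cells (means 414 and 431 CPM), and Cdkn2a in cycling CD8+ Tc (75.2 CPM).

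Cdkn1b (p27) was lower in cycling than in resting Tc. In noncycling CD8+ Tc it stood at 168, 196, 179 and 207 CPM, and in cycling CD8+ Tc at 81.2, 98.4, 99.5 and 127 CPM. The ranges did not overlap, and the within-library log2 ratio was -0.89 ± 0.15 (SD, n = 4), or 1.86-fold lower. In CD4+ Tc the levels were 193, 231, 205 and 218 CPM at rest and 91.1, 117 and 119.6 CPM in the 3 usable cycling samples, a log2 ratio of -0.97 ± 0.11 (SD, n = 3). Lower in every library describes 37.1% of the 9133 genes of at least 5 CPM in the CD8+ comparison and 38.3% of 9274 in the CD4+ comparison, and the median gene had log2 ratios of -0.12 and -0.21.

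Cdkn1a (p21) overlapped between resting and cycling Tc. Its CD8+ levels were 19.2, 14.2, 13.1 and 22.9 CPM at rest and 23.9, 40.6, 17.2 and 67.9 CPM in cycle. These ranges overlapped, with a log2 ratio of 0.91 ± 0.67 (SD, n = 4). In CD4+ Tc the log2 ratio was -0.08 ± 0.77 (SD, n = 3) and differed in sign between libraries, around mean levels of 41.8 CPM at rest and 44.1 CPM in cycle.

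The INK4 genes of the set ran the other way from Cdkn1b. Cdkn2c (p18Ink4c) stood at 20.7, 15.7, 14.1 and 26.5 CPM in noncycling and at 62.3, 64.0, 78.9 and 76.1 CPM in cycling CD8+ Tc. No resting sample reached the lowest cycling sample, and the log2 ratio was 1.85 ± 0.42 (SD, n = 4), or 3.60-fold higher. Cdkn2a stood at 29.1, 23.7, 18.4 and 39.7 CPM at rest and at 81.2, 68.7, 43.5 and 107 CPM in cycle. These pooled classes again did not overlap, with a log2 ratio of 1.39 ± 0.13. Single resting clusters did overlap the cycling range of Cdkn2a, such as Teff-like cluster 1 (35.8 to 77.4 CPM), described below. Whether the mix of subsets differed between cycling and resting cells was not tested. Cdkn2d (p19Ink4d) stood at 31.5, 41.5, 40.7 and 49.4 CPM at rest and at 43.1, 68.2, 73.2 and 72 CPM in cycle. Its ranges overlapped, although each library was higher in cycle, by 0.63 ± 0.17 on the log2 scale. Of the 5 genes, 4 were thus higher in every library, a pattern shared by 26.3% of all genes tested and already used to choose the set.

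**Figure D2:**
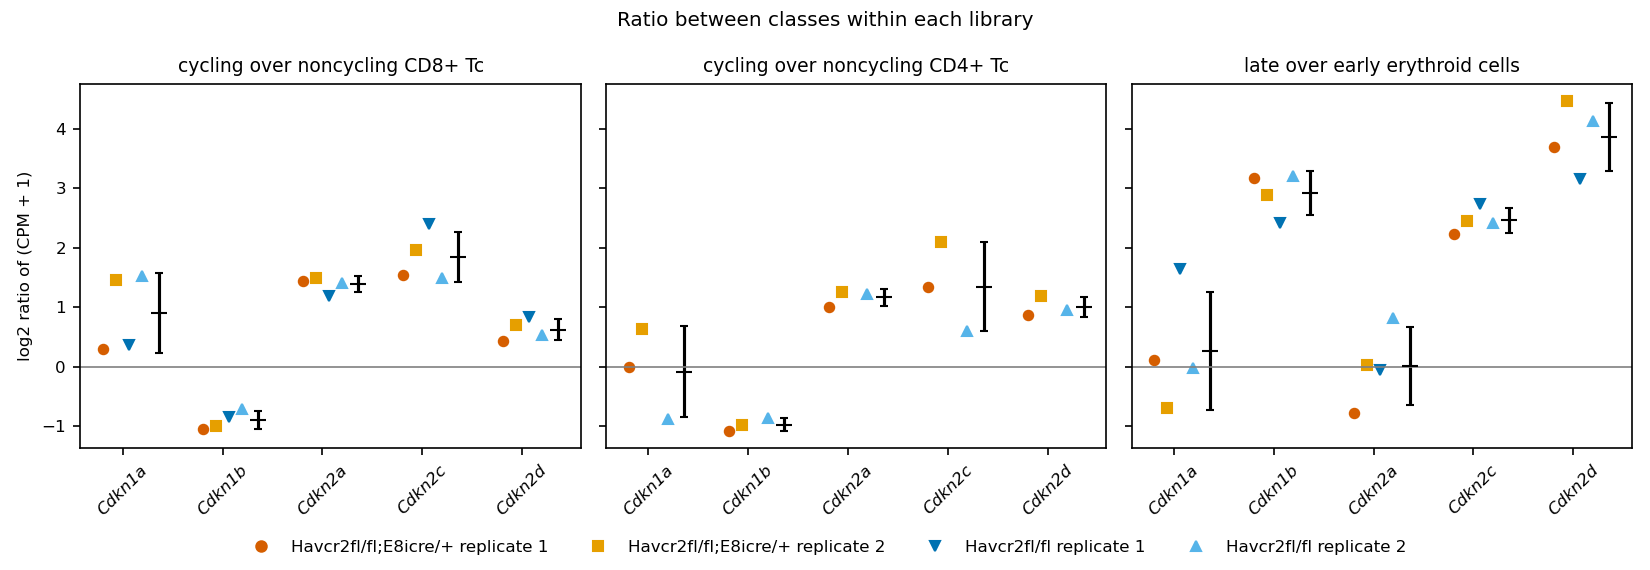
Within-library log2 ratios of CPM + 1 for cycling over noncycling CD8+ Tc, cycling over noncycling CD4+ Tc and late over early erythroid cells. Coloured symbols are libraries and black bars the mean ± SD; Cdkn1b lies below 0 in both Tc comparisons (-0.89 and -0.97) and above 0 in the erythroid one (2.92).

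CD4+ Tc gave the same signs for the INK4 genes of the set. Cdkn2d had means of 52.5 CPM at rest and 103 CPM in cycle, a log2 ratio of 1.01 ± 0.16 (SD, n = 3). Cdkn2a had a log2 ratio of 1.17 ± 0.14, which was 0.49 with cycling cells taken by a marker score, and Cdkn2c of 1.35 ± 0.75, the latter varying between libraries from 0.60 to 2.10. All 3 were higher in each of the 3 libraries, as were 22.6% of genes tested. Hemoglobin RNA from erythroid cells was also more plentiful in cycling CD8+ Tc of the Havcr2fl/fl;E8icre/+ libraries and in every usable cycling CD4+ sample. The 4 globin genes summed to 1954 and 3010 CPM in the cycling CD8+ Tc of the Havcr2fl/fl;E8icre/+ libraries and to 144 and 388 CPM in those of the Havcr2fl/fl libraries. In the 3 usable cycling CD4+ samples they summed to 4221, 4293 and 9347 CPM, against 193 to 810 CPM in noncycling CD4+ Tc. The Havcr2fl/fl replicate 1 sample that was left out had 139 CPM. Scaled by Hbb-bs to the RNA of all late erythroid cells, that material would carry up to 3.41% of the Cdkn1b and 4.85% of the Cdkn2d UMIs in a library's cycling CD8+ Tc, and up to 6.81% and 8.79% in cycling CD4+ Tc. Scaled to late erythroid cluster 5 alone, which had more Cdkn2d and less globin, it would carry up to 14.3% of the Cdkn2d UMIs in cycling CD8+ Tc and 23.1% in cycling CD4+ Tc. The part of this material in the ratios was not tested otherwise.

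Shares of cells with a UMI depend on depth, which was a median of 4269 UMIs in noncycling and 9060 in cycling CD8+ Tc. Before thinning, 54.6% of noncycling and 57.0% of cycling CD8+ Tc had a Cdkn1b UMI. With each cell thinned to 2000 UMIs, leaving out 201 and 4 shallower cells, the shares were 31.0% (95% Wilson interval 29.4 to 32.6) and 19.2% (16.5 to 22.2), which is the order the CPM gave. Thinned shares for Cdkn2a were 4.77% (4.10 to 5.56) and 14.4% (12.1 to 17.1), beside 0.333% (0.113 to 0.973) in late erythroid cells, and for Cdkn2c 3.86% (3.26 to 4.58) and 10.5% (8.53 to 12.9). Before thinning, Cdkn2a had been at 10.3% and 47.7%, with 1.05% in late erythroid cells (median 4768.5 UMIs), and Cdkn2c at 8.23% and 39.0%. The intervals cover counting error only.

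Within cycling CD8+ Tc, the INK4 genes Cdkn2c and Cdkn2d were concentrated in G2/M. In the S phase-like cluster (402 cells) Cdkn2d stood at 4.63, 12.7, 14.3 and 21.1 CPM, and in the G2/M phase-like cluster (352 cells) at 73.4, 113, 127 and 109 CPM. Every G2/M-like sample was above every S-like one, and the log2 ratio was 3.04 ± 0.58 (SD, n = 4), or 8.23-fold. The S-like levels also lay below those of the pooled noncycling class, so the cycling class held one part below and one part above that pooled level. Single resting clusters overlapped both parts. Cdkn2d ran from 8.42 to 21.6 CPM in resting Teff-like cluster 1, within reach of the S-like range. It reached the G2/M-like range in unnamed cluster 7 (56.5 to 146 CPM) and in the TPEX-like cluster (46.2 to 76.7 CPM). Unnamed cluster 5, the one with raised Mki67, reached it too (48.1 to 82.9 CPM). Cdkn2c stood at 17.2, 30.1, 19.1 and 29.5 CPM in S-like and at 97.8, 91.7, 134 and 109.9 CPM in G2/M-like cells, a log2 ratio of 2.16 ± 0.53. Higher in every library was true of 12.7% of 8943 genes here, and lower of 19.8%.

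Cdkn1b and Cdkn2a differed less between the phases. Cdkn1b stood at 60.1, 89.2, 76.4 and 105 CPM in S-like and at 97.8, 106, 121 and 142 CPM in G2/M-like cells, overlapping ranges with a log2 ratio of 0.51 ± 0.21 (SD, n = 4). The corresponding log2 ratio of Cdkn2a was 0.43 ± 0.34, and that of Cdkn1a 0.29 ± 0.91. Both phases lay under the Cdkn1b level of the pooled noncycling class. The highest G2/M-like sample (142 CPM) lay below the lowest noncycling CD8+ sample (168 CPM). Resting Teff-like cluster 1 (134 to 223 CPM) did overlap the G2/M-like range. Unnamed cluster 5 (131 to 194 CPM), counted as noncycling but with raised Mki67, overlapped it as well.

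**Figure D3:**
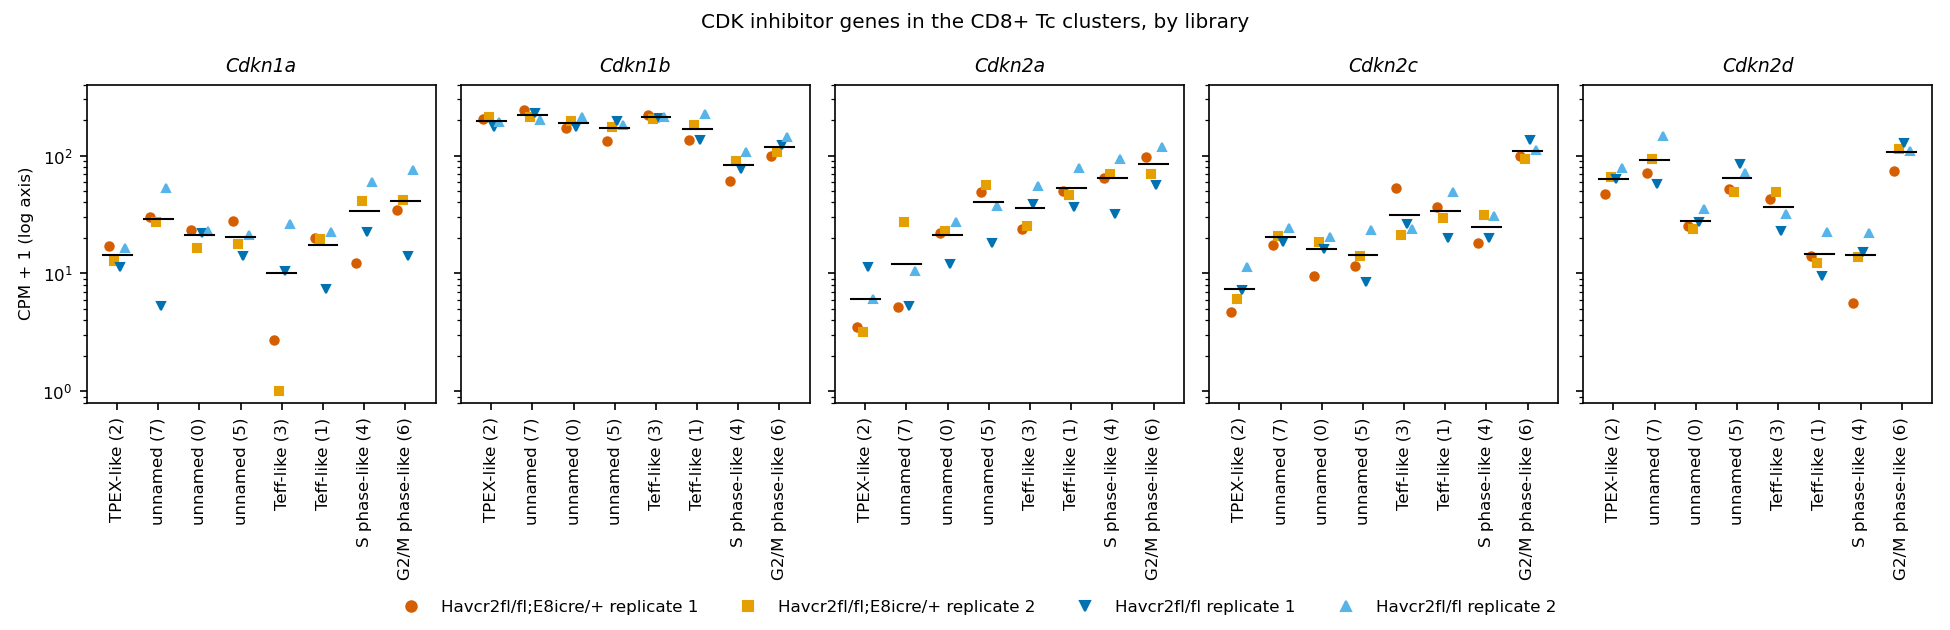
CPM + 1 on a log axis in the CD8+ Tc clusters, with cluster numbers in parentheses, symbols for libraries and lines for means. Cdkn2d is low in the S phase-like cluster (mean 13.2 CPM) and in Teff-like cluster 1 (13.6 CPM), where Cdkn2a is at 63.9 and 51.9 CPM.

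Among resting CD8+ Tc the INK4 genes differed between a progenitor-like and an effector-like cluster. The TPEX-like cluster (558 cells) had raised markers of progenitor exhausted Tc (Tcf7, Slamf6, Id3, Xcl1 and Il7r), and the Teff-like cluster 1 (645 cells) had raised Gzmb, Prf1, Ccl5, Ccl4 and Nkg7 together with 6 of 9 markers of terminal exhaustion. Cdkn2a stood at 2.50, 2.18, 10.4 and 5.11 CPM in TPEX-like and at 49.1, 45.4, 35.8 and 77.4 CPM in Teff-like cells, 9.63-fold lower in the former (log2 ratio -3.27 ± 1.06, SD, n = 4). Cdkn2c ran with it, at 3.75, 5.09, 6.27 and 10.2 CPM against 35.4, 28.4, 18.9 and 48.2 CPM (log2 ratio -2.20 ± 0.61). Cdkn2d was opposite, at 46.2, 64.7, 62.7 and 76.7 CPM against 13.1, 11.4, 8.42 and 21.6 CPM (log2 ratio 2.17 ± 0.49). None of these 3 pairs of ranges overlapped. The TPEX-like cluster held only 391030 to 1376192 UMIs a library, so its Cdkn2a and Cdkn2c levels rest on few UMIs each. The sizes of those 2 ratios are therefore uncertain. In the other Teff-like cluster, 3 (472 cells), Cdkn2a (22.6 to 53.7 CPM) and Cdkn2c (20.1 to 52.2 CPM) also lay above the TPEX-like range, but Cdkn2d (22.0 to 48.3 CPM) overlapped it.

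Cip/Kip genes showed no such split. Cdkn1b stood at 201, 209, 173 and 192 CPM in TPEX-like and at 134, 179, 135 and 223 CPM in Teff-like cells (log2 ratio 0.24 ± 0.34, SD, n = 4), and Cdkn1a at -0.16 ± 0.57. Of 9175 genes, 19% were higher and 17.6% lower in the TPEX-like cells of every library. Across the other noncycling CD8+ clusters Cdkn2d was highest in unnamed cluster 7 (56.5 to 146 CPM), led by Ly6c2, Klf2 and Klrk1. Cdkn2a was at 39.2 ± 16.8 CPM (SD, n = 4) in unnamed cluster 5, the one with raised Mki67.

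In resting CD4+ Tc, Cdkn2d and Cdkn2a separated the naive or memory-like from the cytotoxic cluster, and Cdkn2c did not. Cdkn2d was at 86.7 ± 26.2 CPM in the naive or memory-like cluster and at 18.3 ± 7.83 CPM in the cytotoxic CD4-like cluster (SD, n = 4), whose ranges of 54.8 to 116 and 7.74 to 24.8 CPM did not overlap. Cdkn2a was at 15.1 ± 10.8 and 41.9 ± 9.06 CPM in the same order, with ranges of 4.14 to 29.7 and 30.9 to 51.0 CPM. Cdkn2c ranged from 8.39 to 33.1 and from 21.3 to 124 CPM, which overlapped. The share of all genes whose ranges part these clusters was not measured, so the separation is not shown to be particular to these genes. The Treg-like cluster had at least 20 cells only in the 2 Havcr2fl/fl;E8icre/+ libraries. Its mean Cdkn1b level was the second highest of the 26 clusters, at 239.8 and 281 CPM. That range overlapped the next cluster, the TPEX-like CD4+ Tc (181 to 239.9 CPM over 4 libraries).

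Late erythroid cells had the highest mean levels of Cdkn1b, Cdkn2c and Cdkn2d among the classes. Early erythroid cells (339, with Kit, Myc, Myb and Gata2 raised) held Cdkn1b at 44.0, 66.3, 65.0 and 42.7 CPM, and late erythroid cells (948, with Alas2, Slc4a1 and globin genes raised) at 407, 495, 352 and 400.3 CPM. The log2 ratio was 2.92 ± 0.36 (SD, n = 4), or 7.57-fold. Cdkn2d went from 31.3, 21.1, 32.5 and 28.7 CPM to 419, 489, 298 and 517 CPM, a log2 ratio of 3.86 ± 0.56, or 14.5-fold. Cdkn2c went from 21.8, 20, 10.4 and 17.4 CPM to 106, 114, 75.4 and 97.1 CPM, a log2 ratio of 2.46 ± 0.21, or 5.51-fold. None of the 3 pairs of ranges overlapped. The early class left out unnamed clusters 0 (1230 cells) and 7 (226 cells), which also held little globin. Their Cdkn1b (17.3 to 29.1 and 11.4 to 21.9 CPM) and Cdkn2d (4.32 to 7.86 and 3.65 to 5.68 CPM) lay below the early range. Their Cdkn2c (18.2 to 26.1 and 14.6 to 25.1 CPM) overlapped it. The sizes depended on how cells were chosen, since stages cut by globin share gave Cdkn2c a log2 ratio of 0.95, and a stricter cell filter gave 2.07 for Cdkn1b, 3.17 for Cdkn2c and 4.64 for Cdkn2d.

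In this comparison 13.9% of 8347 genes were higher in every library and 76.4% were lower. Globin took 34.1% and 58.3% of the UMIs in the late clusters, which lowers the CPM of everything else, and the median gene had a log2 ratio of -2.00. With globin UMIs left out the median was -1.19, and Cdkn1b, Cdkn2c and Cdkn2d stood at 3.86, 3.39 and 4.80. In such sums, fewer cells with the RNA and less RNA per cell cannot be told apart. Thinned to 2000 UMIs, 51.6% of late cells (48.3 to 54.8) had a Cdkn1b UMI against 9.44% of early cells (6.77 to 13), and 30.6% (27.7 to 33.7) against 8.26% (5.78 to 11.7) had a Cdkn2d UMI. Before thinning the shares were 77.6% and 54.3% for Cdkn1b and 40.0% and 36.6% for Cdkn2d, at median depths of 4768.5 UMIs in late and 19903 in early cells.

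Cdkn2a and Cdkn1a did not follow. Cdkn2a was at 4.36, 0.572, 2.60 and 1.13 CPM in early and at 2.12, 0.612, 2.48 and 2.78 CPM in late cells, and these ranges overlapped. Unthinned, at a median of 19903 UMIs, 5.01% of the early cells had a UMI for it. Cdkn1a was at 8.72, 4.57, 9.11 and 11.3 CPM in early and at 9.56, 2.45, 30.6 and 11.1 CPM in late cells (log2 ratio 0.26 ± 0.99, SD, n = 4), where the one high value is Havcr2fl/fl replicate 1.

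**Figure D4:**
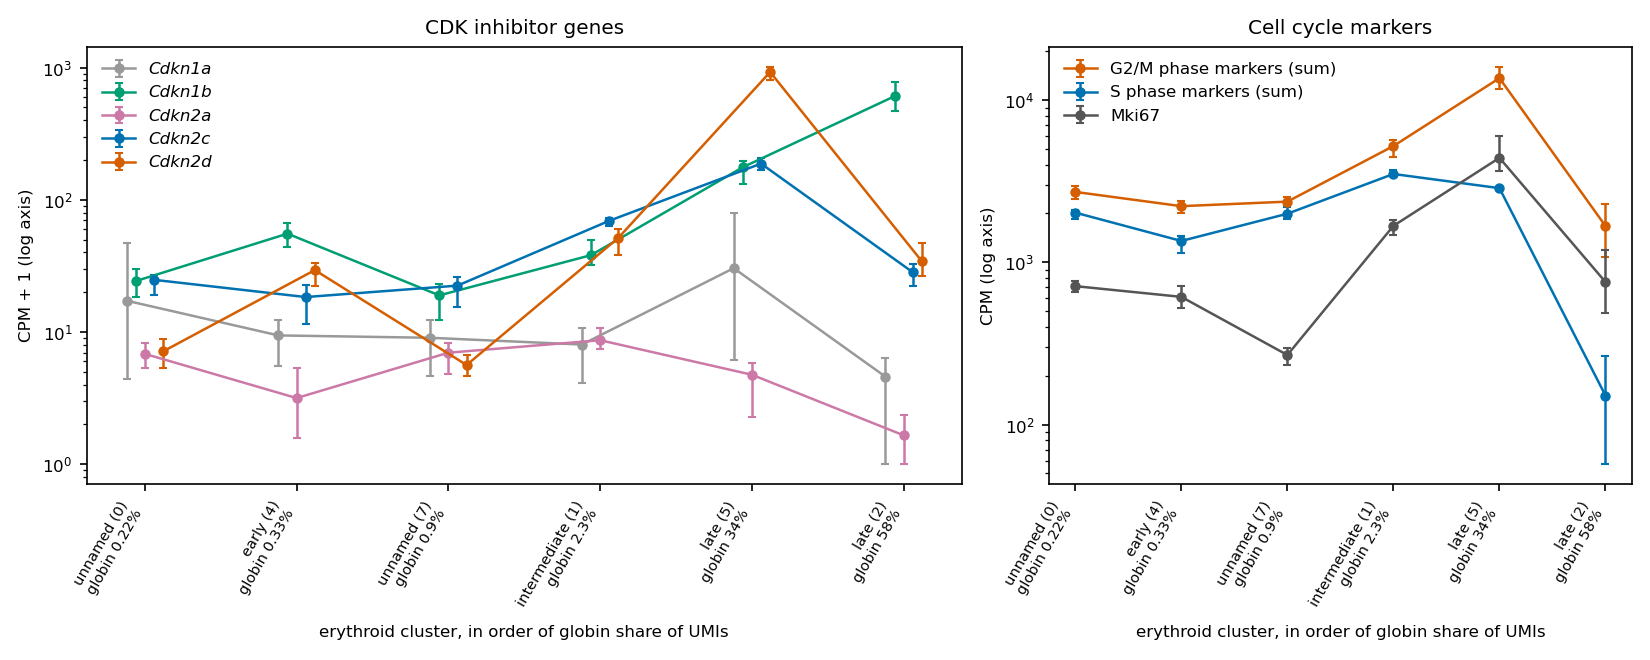
Left, CPM + 1 of the 5 genes; right, CPM of Mki67 and of summed S and G2/M phase markers, both on log axes, in clusters ordered by globin share of UMIs. Points are means over libraries and bars the lowest and highest library; Cdkn2d peaks in late cluster 5 (mean 926 CPM) with the G2/M markers (13657 CPM), and Cdkn1b in late cluster 2 (607 CPM).

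The 2 late erythroid clusters separated the genes further. Cluster 5 (334 cells) had the higher cell cycle markers, with Mki67 at 4407 CPM and S phase markers at 2865 CPM in the mean, and cluster 2 (614 cells) had more globin, with Mki67 at 756 CPM and S phase markers at 151 CPM. Cdkn2d stood at 889.7, 989.9, 811 and 1013 CPM in cluster 5 and at 25.4, 33.8, 27.8 and 46.0 CPM in cluster 2, a log2 ratio of -4.79 ± 0.27 (SD, n = 4), or 27.6-fold lower. Cdkn2c stood at 207, 204, 168 and 168 CPM in cluster 5 and at 21.5, 31.5, 26.6 and 29.8 CPM in cluster 2 (log2 ratio -2.74 ± 0.33). In cluster 2, the larger part of the late class, the CPM of Cdkn2d and Cdkn2c overlapped their early ranges (21.1 to 32.5 and 10.4 to 21.8 CPM). Globin took a mean of 58.3% of the UMIs in cluster 2 and little in early cells, which lowers the CPM of other genes in cluster 2. The overlap is thus one of CPM and does not show a return to early levels. Globin made up most of the UMIs of cluster 2 in every library. With globin UMIs left out, Cdkn2d and Cdkn2c in cluster 2 lie above their early ranges in every library. The early ranges hardly change, so the overlap does not remain. The high CPM of these genes in the late class lay in cluster 5.

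Cdkn1b went the opposite way, from 196, 185, 132 and 189 CPM in cluster 5 to 583, 777, 468 and 601 CPM in cluster 2 (log2 ratio 1.78 ± 0.22, SD, n = 4). Here 11.2% of 5314 genes were higher and 66.7% lower in every library, around a median of -1.33. Cdkn1a stood at 16.3, 5.14, 79.2 and 17.1 CPM in cluster 5, where the high value was again Havcr2fl/fl replicate 1, and at 3.90, 0, 5.06 and 5.41 CPM in cluster 2. In the intermediate erythroid cells (884, of which 703 came from Havcr2fl/fl replicate 2), Cdkn2c was already at 68.2, 73.7, 61.8 and 69.7 CPM, above all early samples, whereas Cdkn1b was at 38.1, 41.1, 32.9 and 50.5 CPM, within or below the early range.

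Neutrophil-like cells that came with the Tc held the next highest Cdkn2d after late erythroid cells. In them (238 cells) Cdkn2d stood at 199, 238, 207 and 299.6 CPM and Cdkn1b at 121, 98.1, 128 and 134 CPM. In granulocyte-monocyte progenitor-like cells (339 cells) Cdkn2d stood at 81.0, 60.3, 79.8 and 93.5 CPM and Cdkn1b at 43.4, 53.2, 48.5 and 37.7 CPM, so that neither range overlapped that of the neutrophil-like cells. The share of all genes whose ranges part these classes was not measured. Median depth was 33496 UMIs in the progenitor-like and 6862.5 UMIs in the neutrophil-like cells. Cdkn2a had no UMI in 3 of the 4 neutrophil-like samples. Over the 16 classes the order of Cdkn1b ran late erythroid cells (414 CPM), noncycling CD4+ Tc (212), noncycling CD8+ Tc (187), neutrophil-like cells (120.1), cycling CD4+ Tc (109) and cycling CD8+ Tc (101), with T cells of both or neither coreceptor (208) between the first 2 Tc classes. Late erythroid cells did not overlap the next class, nor noncycling CD8+ Tc the neutrophil-like cells, while the other neighbours in that order overlapped. For Cdkn2d late erythroid (431) and neutrophil-like cells (236) overlapped by their lowest and highest samples, 298 and 299.6 CPM.

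The CDK inhibitor genes outside the set gave little or followed mitosis. Cdkn1c had 4 UMIs in all noncycling and 4 in all cycling CD8+ Tc. Cdkn2b, beside Cdkn2a on the chromosome, was at 6.60 ± 3.10 CPM in noncycling and 3.73 ± 1.88 CPM in cycling CD8+ Tc (SD, n = 4), and had no UMI in late erythroid cells. Unlike the INK4 genes of the set, Cdkn2b had negative mean log2 ratios of cycling over noncycling cells. They were -0.69 ± 0.67 in CD8+ Tc (SD, n = 4), with 1 library higher, and -1.02 ± 0.88 in CD4+ Tc (SD, n = 3). Cdkn3, a phosphatase that acts on CDKs, stood at 8.01 ± 2.42 CPM in noncycling and 62.4 ± 11.7 CPM in cycling CD8+ Tc, and stood at 187 ± 64.5 CPM in late erythroid cells.

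The partners of these inhibitors were read from lists of pathway genes. Between cycling and noncycling CD8+ Tc, 9 of 11 CDKs and cyclins tested were higher in every library and 2 lower, with a median log2 ratio of 2.06 against -0.12 over all genes. Ccna2 (4.36), Cdk1 (3.93) and Ccnb1 (3.34) were at the top, and the D-type cyclins Ccnd2 (-0.84) and Ccnd3 (-0.61) at the bottom. Of 13 pocket protein and E2F genes 11 were higher, E2f8 (4.26) first, and 1 was lower. Among 15 regulators of CDK inhibitor level 7 were higher and 3 lower. They included Cks1b (3.06) and Skp2 (1.43), parts of the ligase that marks p27 for degradation, and Ezh2 (2.28), a silencer of the Cdkn2a locus. Foxo3 (-0.70), an activator of Cdkn1b, and Bmi1 (-0.33) were at the bottom of that list. Of 13 p53 targets 2 were higher and 6 lower, Bax (0.56) highest and Bbc3 (-1.92) and Btg2 (-1.37) lowest, beside 26.3% of all genes higher and 37.1% lower. In CD4+ Tc, 8 CDKs and cyclins of 11 were higher and 2 lower, 10 pocket protein and E2F genes of 13 were higher and 1 lower, 4 regulators of 15 were higher and 3 lower, and 1 p53 target of 12 was higher and 7 lower, beside 22.6% and 38.3% of all genes.

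In late over early erythroid cells the kinases that INK4 proteins bind were among the lowest. The log2 ratios were -6.85 for Cdk6 and -5.59 for Cdk4, and -6.18 for Ccnd2, while Ccne2 (2.55), Ccna2 (1.86) and Ccnb2 (1.81) were the highest of the CDKs and cyclins, of which 6 of 12 were higher and 4 lower in every library. Of 13 pocket protein and E2F genes 7 were higher and 5 lower, with E2f2 at 5.78 and Rb1, the retinoblastoma gene, at 3.09. E2f3 at -3.75 and E2f5 at -3.28 were at the other end. Of 13 regulators 2 were higher and 10 lower, near the 13.9% and 76.4% of all genes, with a median of -1.92 beside -2.00, from Foxo3 at 2.49 to Myc at -6.41. The p53 targets split into 5 higher and 6 lower of 12, from Btg2 at 6.04 and Gadd45a at 3.56 to Ccng1 at -2.79 and Aen at -4.50. Between late clusters 2 and 5, 9 of 9 CDKs and cyclins were lower in cluster 2 in every library, beside 66.7% of all genes. Their median log2 ratio was -4.15 against -1.33 over all genes.

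Genes whose mean level over the 26 clusters most resembled each member were taken by Pearson's r of log2(CPM + 1) among 8088 genes. The clusters share libraries and differ in depth and globin content, so these values describe likeness only. Cdkn1b was closest to Ypel3 (r = 0.94), and Ezh1, Klhl25 and Rb1cc1 (0.93 each) were also among the genes most like it. Cdkn2a was closest to Stk32c, Eomes and Tox2 (0.86 each), with Eomes and Tox2 encoding transcription factors of exhausted Tc. Cdkn2c was closest to Kif18a (0.84), a mitotic kinesin, Tuba1c (0.83), Hist1h1d (0.82), Rad21 (0.81) and Rb1 (0.80). Cdkn2d was closest to Lbr (0.85), the lamin B receptor, and Cdc25b (0.78), a phosphatase that activates CDK1 for mitosis, and Cdkn1a to Gltp (0.83) and Fam110a (0.80). Among the members themselves r was 0.50 for Cdkn1a with Cdkn2a, 0.44 for Cdkn2c with Cdkn2d and -0.18 for Cdkn2a with Cdkn2d.

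Genotype, which the choice of genes did not use, was tested by edgeR's quasi-likelihood test on UMIs summed per class and library, with 2 libraries a genotype, except in cycling CD4+ Tc, where Havcr2fl/fl had 1 library. No member was called at a Benjamini-Hochberg adjusted p of 0.05 in any of 33 tests within classes or in 5 tests of whether the genotype difference depends on cycling. The lowest adjusted p was 0.599, 2 of the 38 tests had an unadjusted p under 0.05, and DESeq2 called 0 of the 33, also with 2 at an unadjusted p under 0.05. Havcr2, the targeted gene, was not called either. It had log2 fold changes of -1.29 (SE 0.61) in noncycling and -1.39 (SE 0.57) in cycling CD8+ Tc, with edgeR adjusted p of 0.999 in each. Absence of a call for a member thus says little. Calls over all genes were few. They made up 0.0194% of genes in noncycling and 0.0785% in cycling CD8+ Tc, 0.0219% in noncycling and 0.188% in cycling CD4+ Tc, 0.0977% in early and 0.061% in intermediate erythroid cells, and 0.0483% in the test of dependence on cycling. In late erythroid cells the share was 0%, with 300 genes at an unadjusted p under 0.05 and 14 called by DESeq2. The labels do not say that the libraries of a genotype come from separate transplants, and the p-values measure the spread between these libraries.

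**Figure D5:**
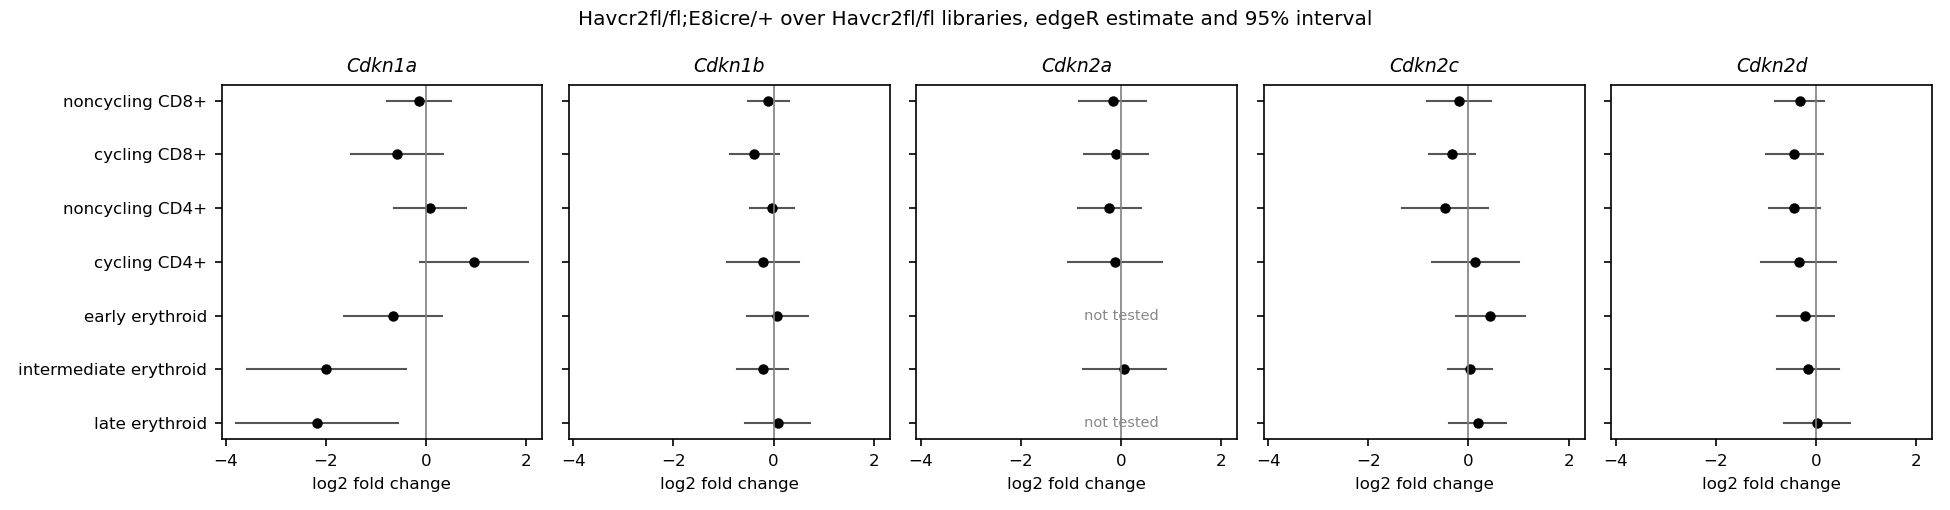
Log2 fold change of Havcr2fl/fl;E8icre/+ over Havcr2fl/fl libraries (points) with 95% intervals (lines) from edgeR, for the 5 genes in 7 classes, with 3 libraries in cycling CD4+ Tc and 4 in the others. Most intervals include 0, and those of Cdkn1a in intermediate (-3.57 to -0.41) and late (-3.79 to -0.56) erythroid cells do not, without passing the adjusted threshold.

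In CD8+ Tc, where E8i-cre acts, the point estimates lay from -0.58 to -0.10, and every interval included 0. Cdkn1b had a log2 fold change of -0.10 (95% interval -0.51 to 0.31) in noncycling and -0.38 (-0.87 to 0.10) in cycling CD8+ Tc, and Cdkn2d of -0.32 (-0.81 to 0.17) and -0.43 (-0.99 to 0.13). Cdkn2a had -0.17 (-0.84 to 0.51) and -0.11 (-0.75 to 0.54), Cdkn2c -0.19 (-0.83 to 0.46) and -0.33 (-0.78 to 0.12), and Cdkn1a -0.14 (-0.77 to 0.49) and -0.58 (-1.50 to 0.34). Without Havcr2fl/fl replicate 2, Cdkn1a and Cdkn2a turned to 0.85 and 0.76 in cycling cells, and Cdkn1a, Cdkn1b, Cdkn2a and Cdkn2c to 0.31, 0.0025, 0.49 and 0.34 in noncycling cells. Without a Havcr2fl/fl;E8icre/+ library, noncycling cells gave 0.023 for Cdkn1a (replicate 2) and 0.050 for Cdkn1b (replicate 1). With all 4 libraries the intervals allow changes of more than 1 log2 unit for Cdkn1a and of less than that for the other 4 genes. The genotype difference of Cdkn1b was 0.27 lower in cycling than in noncycling cells on the log2 scale (difference -0.27, interval -0.58 to 0.051). That interval included 0, as did those of the other 4 members in that test. In CD4+ Tc the estimates ran from -0.47 (Cdkn2c, noncycling, interval -1.33 to 0.39) to 0.95 (Cdkn1a, cycling, -0.12 to 2.03). The cycling CD4+ values compare 2 libraries with 1 Havcr2fl/fl library, which is assumed to vary like the others.

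Among erythroid cells, which E8i-cre is not meant to reach, Cdkn1b, Cdkn2c and Cdkn2d had estimates from -0.22 (Cdkn1b, intermediate) to 0.44 (Cdkn2c, early). The 2 tests with an unadjusted p under 0.05 were both of Cdkn1a, at -1.99 (SE 0.72) in intermediate and -2.18 (SE 0.73) in late erythroid cells by edgeR's quasi-likelihood test, with Benjamini-Hochberg adjusted p of 1.00 and 0.599. Cdkn2a was too low to test in early and late cells. The Cdkn1a value rested on 1 library. Havcr2fl/fl replicate 1 stood at 36.7 CPM in intermediate cells, against 2.97 to 9.45 CPM in the other 3, and without it the estimates were -1.02 and -0.99. Without Havcr2fl/fl replicate 2 they were -3.04 and -2.94 and passed the threshold (edgeR adjusted p of 1.42e-07 and 1.78e-05). Leaving out Havcr2fl/fl;E8icre/+ replicate 2 gave -2.86 in intermediate cells (edgeR adjusted p of 0.0465), and leaving out replicate 1 of that genotype -3.23 in late cells (0.00223).

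Few cells carried that level. Over the erythroid clusters, unnamed clusters 0 and 7 included, Havcr2fl/fl replicate 1 had 179 Cdkn1a UMIs in 32 of 233 cells, and 5 cells held 93 of them (52.0%). Its level was 34.2 CPM with those cells and 17.1 CPM without them, against 4.02 to 8.66 CPM with and 1.96 to 7.43 CPM without the top 5 cells in the other libraries. In the intermediate class 29 of its 38 UMIs came from 1 cell of 25. Over the same erythroid clusters the 17 summed p53 targets of this library were at 591 CPM, against 478 to 522 CPM in the others. In unnamed cluster 0, which held 97 of its 179 Cdkn1a UMIs, they were at 542 CPM, against 402 to 488 CPM. They were at 340 CPM in early cells (others 325 to 402), 528 CPM in intermediate cells (485 to 529) and 915 CPM in late cells (1124 to 1220). A link with Cdkn1a was not tested. In noncycling CD8+ Tc the same library had the lowest Cdkn1a of the 4, at 13.1 CPM.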

How the data were processed

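Single-cell UMI counts per gene were measured in 4 spleen libraries with the 10x 3′ kit, and the authors deposited them as raw counts in 1 filtered matrix a library, made with Cell Ranger 6.1.2 on mm10 per the submitters' processing notes. The annotation is not given in the sources used here. The antibody tag was left out. The members and gene lists were chosen with earlier results of these data known. Barcodes under 500 genes or 1000 UMIs, or with over 10% mitochondrial UMIs, were dropped (11632 of 15784 remained), and 132 Scrublet calls were removed. Cells were integrated and clustered with Seurat 5.3.0 (2000 variable genes, 30 dimensions) in R 4.3.3. Clusters were named from a fixed marker list where at least 3 of its genes were raised, and no fewer than were not raised. That list also had to hold as many of the cluster's 10 leading genes as any other list, and other clusters stayed unnamed. UMIs were summed per class and library, and a library with fewer than 20 cells of a class was left out.

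Levels are CPM, and within-library ratios use a pseudocount of 1 CPM over genes of at least 5 CPM, with no test. Genotypes were compared with edgeR 4.0.16 (quasi-likelihood test, TMM, low-count filter, Benjamini-Hochberg adjustment over all genes tested), and DESeq2 1.42.0 was an alternative. Group, replicate and genotype came from the labels. The text names all 5 members, the CDK inhibitors outside the set, Havcr2, cell cycle and globin checks, genes of the pathway lists past the threshold or, for 2 comparisons, the 3 highest and 3 lowest of a list, of which the ends are printed, and up to 5 genes most like each member, of which 1 is not reported here. No pathway gene was called by genotype. Scripts were tested on simulated data. Alternatives covered scaling, filters, doublets, cell classes, the replicate block and leaving out each library.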

Additional observations from a re-analysis of the deposited data

How the results depend on the processing

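Of 150 within-library ratios recomputed under an alternative, 135 moved by less than 1 SD, and none with 1 sign in all libraries changed sign. With cycling cells taken by a marker score, Cdkn2a was at 1.24 in CD8+ Tc, and Cdkn1b at -0.79 and Cdkn2a at 0.49 in CD4+ Tc. A stricter cell filter gave Cdkn2a 0.97 in CD4+ Tc and, for late over early erythroid cells, Cdkn1b 2.07, Cdkn2c 3.17 and Cdkn2d 4.64. Stages cut by globin share gave Cdkn1b 3.39, Cdkn2a -0.98 and Cdkn2c 0.95, globin UMIs left out gave Cdkn1b 3.86, Cdkn2a 0.67, Cdkn2c 3.39 and Cdkn2d 4.80, and a pseudocount of 5 gave Cdkn2c 2.22. The cause was not tested.

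Of 315 genotype values of members, 32 changed sign and 6 were called, all of Cdkn1a in erythroid cells: without the low-count filter at -2.01 (intermediate) and -2.13 (late), and 4 with 1 library left out (-3.23 to -2.86), with edgeR adjusted p from 1.42e-07 to 0.0465. The labels do not say whether same-numbered libraries share a batch. Same-numbered samples correlated from -0.11 to 0.060 over genes, which with 2 pairs cannot decide it. The main tests used no replicate block. With the replicate block the genes called by genotype were 0 in noncycling CD8+ Tc, 5 in noncycling CD4+ Tc, 36, 3 and 12 in early, intermediate and late erythroid cells, and Cdkn2a turned to 0.013 in cycling CD8+ Tc and -0.030 in intermediate erythroid cells. DESeq2 called 7 and 6 genes in noncycling CD8+ and CD4+ Tc, 4 in cycling CD4+ Tc, and 4 and 14 in early and late erythroid cells. Without the low-count filter the counts were 64, 34, 48 and 35 in noncycling and cycling CD8+ and noncycling and cycling CD4+ Tc, 75, 32 and 50 along the erythroid stages, and 29 for dependence on cycling. The stricter cell filter gave 10 and 34 in noncycling and cycling CD4+ Tc and 4 and 21 in early and late erythroid cells, with Cdkn1b at 0.048 in noncycling CD4+ Tc, Cdkn2a at 0.25 in cycling CD4+ Tc and -0.062 in intermediate and Cdkn2d at -0.0049 in late erythroid cells. In cycling CD4+ Tc, DESeq2's size factors gave 36 and doublets at the expected rate 41.

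Leaving out 1 library gave 6 to 161 genes in noncycling CD8+ Tc, 11 to 35 in cycling CD8+ Tc, 6 to 21 in noncycling CD4+ Tc, and 23 to 302, 11 to 56 and 0 to 64 in early, intermediate and late erythroid cells. Member values that changed sign then ranged, for Cdkn1a, from -0.48 to 0.31 in noncycling CD8+ Tc, -1.13 to 0.85 in cycling CD8+ Tc and -0.32 to 0.46 in noncycling CD4+ Tc, and for Cdkn1b from -0.27 to 0.050 in noncycling CD8+ Tc, -0.21 to 0.12 in noncycling CD4+ Tc and -0.34 to 0.40, -0.39 to 0.16 and -0.087 to 0.25 along the erythroid stages. Cdkn2a ranged from -0.61 to 0.49 in noncycling and -0.55 to 0.76 in cycling CD8+ Tc and -0.21 to 0.15 in intermediate erythroid cells, Cdkn2c from -0.56 to 0.34 in noncycling CD8+ Tc, -1.08 to 0.22 in noncycling CD4+ Tc and -0.14 to 0.20 in intermediate erythroid cells, and Cdkn2d from -0.63 to 0.23 in intermediate and -0.12 to 0.20 in late erythroid cells. For cycling CD4+ Tc, neither the block nor a left-out library could be run, for want of residual degrees of freedom.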
